A study of Homo sapiens with 2 samples.

Results

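The genes described here encode the coactivators of the Hippo pathway, their DNA-binding partners and a set of genes that respond to them: YAP1, WWTR1, TEAD1, TEAD4, CCN1, CCN2, ANKRD1, AMOTL2, LATS2 and AJUBA. They were taken by symbol from the gene table, which gave 10 members among 38606 genes. The cells were human mesenchymal stem cells derived from adipose tissue and bought from a commercial supplier. Both cultures were grown to near confluence and starved overnight, then 1 was left untreated and the other received TGFB1, transforming growth factor beta 1, at 10 ng/mL for 24 h. Cells of both were detached with trypsin, frozen and sequenced with the 10x single-cell method, in 1 library per condition. The labels name neither donor nor replicate culture, so a difference between the libraries cannot be told apart from a difference between these cultures, no p-value is given, and each 95% interval covers counting error only.

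In the Hippo pathway, the kinases MST1 and MST2 activate LATS1 and LATS2, which phosphorylate the coactivators YAP (from YAP1) and TAZ (from WWTR1) and hold them in the cytoplasm. When these kinases are inactive, as in spread cells on a stiff surface, YAP and TAZ enter the nucleus and bind TEAD factors, which carry the DNA-binding domain. Their best known target genes are CCN1, CCN2 and ANKRD1. CCN2, also called connective tissue growth factor, is in addition a classical gene of the TGFB and SMAD response in fibroblasts. Transcript levels do not show where YAP and TAZ proteins are or whether they are phosphorylated.

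Promoter sequence is shown first because the same TEAD core motif stands in target genes that differed in how they moved between the libraries. RefSeq (GRCh38.p14) windows were matched by symbol for 7 of the 10 members, in 10 windows. CCN1, TEAD1 and TEAD4 are named only. The search used the TEAD core GGAATG on both strands of the 250 bases before each annotated start. This motif was present in 11.9% of 34788 such windows over all genes, 0.946% held it 2 times or more and 0.0834% held it 3 times or more. It was found in a window of 5 members. Each sequence below runs 5′ to 3′ along the gene's strand, and capitals mark GGAATG or, on the other strand, CATTCC. CCN2 lies on the minus strand (chr6:131951373-131951622), ANKRD1 on the minus strand (chr10:90921088-90921337), AMOTL2 on the minus strand (an annotated start inside the gene, chr3:134374448-134374697) and YAP1 on the plus strand (chr11:102110197-102110446).
CCN2: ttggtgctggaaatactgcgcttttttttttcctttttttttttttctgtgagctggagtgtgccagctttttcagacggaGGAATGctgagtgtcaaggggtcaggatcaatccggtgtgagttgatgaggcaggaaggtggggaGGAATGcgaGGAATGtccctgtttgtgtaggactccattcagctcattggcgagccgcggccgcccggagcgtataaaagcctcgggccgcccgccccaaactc
ANKRD1: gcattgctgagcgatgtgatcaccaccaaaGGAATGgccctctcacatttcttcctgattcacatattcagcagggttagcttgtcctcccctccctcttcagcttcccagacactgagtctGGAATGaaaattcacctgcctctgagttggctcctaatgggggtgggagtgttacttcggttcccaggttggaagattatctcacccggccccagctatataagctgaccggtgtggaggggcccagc
AMOTL2: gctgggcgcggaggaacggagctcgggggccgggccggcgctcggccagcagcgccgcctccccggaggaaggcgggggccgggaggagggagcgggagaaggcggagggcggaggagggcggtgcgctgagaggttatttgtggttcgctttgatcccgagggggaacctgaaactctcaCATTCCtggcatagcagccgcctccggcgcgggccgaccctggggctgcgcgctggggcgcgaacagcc
YAP1: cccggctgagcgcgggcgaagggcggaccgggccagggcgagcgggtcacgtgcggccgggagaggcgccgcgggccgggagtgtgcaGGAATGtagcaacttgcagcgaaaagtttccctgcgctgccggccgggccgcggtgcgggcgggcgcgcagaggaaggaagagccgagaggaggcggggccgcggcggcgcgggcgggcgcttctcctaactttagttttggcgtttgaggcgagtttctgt

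The CCN2 window held 3 matches, beginning 169, 104 and 95 bases before the start, the last pair separated by a few bases. The ANKRD1 window held 2, beginning 220 and 128 bases before the start. AMOTL2 had 1 match on the opposite strand, YAP1 had 1, and AJUBA had 1 in the window of a start inside the gene (chr14:22976843-22977092, minus strand). The windows of LATS2 and WWTR1 did not hold these letters. Other motifs were searched in the same windows. A loose form of the AP-1 motif, TGANTCA with any base at N (6.59% of all windows), was present in ANKRD1 only. It read TGATTCA there, so the search does not show a strict AP-1 site. The SMAD motif CAGAC (38.0% of all windows) was present in a window of CCN2, ANKRD1, AMOTL2 and AJUBA. The CArG box bound by SRF (1.17% of all windows) was present in no member. A match describes the letters and is not evidence of binding.

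The untreated library held 8101 cells and 169011524 unique molecular identifiers (UMIs, counts of single transcript molecules), and the TGFB1 library 12555 cells and 208991941 UMIs. The median cell had 19249 and 15134 UMIs. The 2 libraries shared 18 cell barcodes. NT5E and THY1, which define mesenchymal stromal cells, were detected in 73.7% to 97.8% of cells, but ENG, the remaining defining marker, in only 5.21% and 6.09% (6.67 and 7.85 CPM, UMIs of a gene scaled to a common library total). PTPRC, CD34, CD14 and HLA-DRA, which such cells should lack, lay between 0.0526 and 0.811 CPM in both libraries. The endothelial, epithelial and adipocyte lists each summed to under 1 CPM, with ADIPOQ and KRT5 at 0 in both. The share of cells with a UMI of MKI67 or TOP2A, markers of dividing cells, was 17.4% untreated and 7.91% with TGFB1.

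Of the 10 genes, CCN2, WWTR1 and CCN1 were at least 1.5-fold higher in the TGFB1 library and none of those tested was 1.5-fold lower. ANKRD1, under 5 CPM in both libraries and so outside the tested set, was lower. On the CPM scale YAP1, AMOTL2, LATS2 and AJUBA differed by less than 1.2-fold, and TEAD1 and TEAD4 lay between. Counting only genes that reached 5 CPM in a library, this was 3 of 9 members higher, where 8.45% of 10928 genes were higher and 14.2% were lower. The median log2 ratio was 0.44 over the 9 members and -0.10 over all genes tested. Other scalings shifted every log2 ratio upward by 0.15 (TMM) or 0.19 (median of ratios). The higher genes were then 54.0% or 58.0% of all genes past 1.5-fold, against 37.3% under CPM, and TEAD1 and TEAD4 also passed 1.5-fold.

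**Figure D1:**
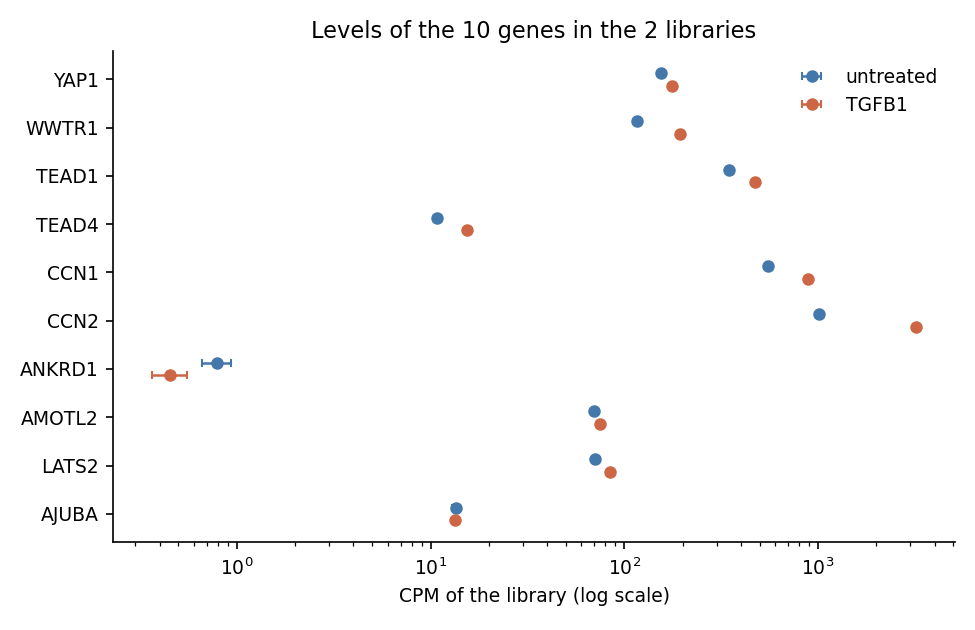
Level of each gene in the untreated and the TGFB1 library, in CPM on a log axis; points are library sums and bars exact Poisson 95% intervals, often smaller than the point. CCN2 shows the widest gap between the libraries, from 1015 to 3219 CPM.

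The coactivators differed from each other in how far they moved. YAP1 (chr11:102110447-102233424) had 154 CPM untreated and 177 CPM with TGFB1, a ratio of 1.15 (1.13 to 1.17). WWTR1 (chr3:149517235-149724788), which encodes TAZ, had 116 and 195 CPM, a ratio of 1.68 (1.66 to 1.71). Of the 2 coactivator genes, WWTR1 was thus the one past 1.5-fold. Thinning every cell to 7500 UMIs, which kept 7646 untreated and 9330 TGFB1 cells, placed both libraries at 1 depth. It kept 45 of 1218 TGFB1 cells in cluster 5 of the authors and 3640 of 5303 in cluster 0, so thinned values hardly cover cluster 5. WWTR1 was then detected in 51.4% of untreated cells (50.3 to 52.5) and in 70.8% of those with TGFB1 (69.8 to 71.7), and YAP1 in 62.5% and 68.2%. Without thinning, the shallower TGFB1 cells reversed the order for YAP1 (84.3% and 79.3%) but not for WWTR1 (76.7% and 81.9%). PTPRC, the leukocyte gene that stromal cells should lack, had a UMI in 0.131% and 0.214% of thinned cells.

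Both TEAD members had ratios above 1 that did not reach 1.5-fold. TEAD1 (chr11:12674421-12944737) had 348 CPM untreated and 472 CPM with TGFB1, a ratio of 1.36 (1.34 to 1.37), and a UMI in 86.1% and 92.9% of thinned cells. TEAD4 (chr12:2959397-3040676) had 10.9 and 15.4 CPM, a ratio of 1.42 (1.34 to 1.51), and a UMI in 7.44% and 10.6% of thinned cells. The other family members on the list of TEAD factors and vestigial-like cofactors were 4 of 6 tested, with 1 higher and 1 lower and a median log2 ratio of 0.15. TEAD3 had 11.9 and 20.7 CPM, a ratio of 1.74 (1.65 to 1.83), and TEAD2 was at 9.56 and 11.2 CPM. VGLL3, a cofactor that binds TEADs in place of YAP, had 203 CPM untreated and 110 CPM with TGFB1, which is 1.85-fold lower (1.82 to 1.89), while VGLL4, which opposes YAP on TEAD, was at 112 and 118 CPM. Of the 4 TEAD genes, TEAD3 was thus the one past 1.5-fold.

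The secreted targets showed the largest difference. CCN2 (chr6:131948176-131951372) had 1015 CPM untreated and 3219 CPM with TGFB1, a ratio of 3.17 (3.15 to 3.19). CCN1 (chr1:85580761-85583950), a matricellular protein of the same family, had 555 and 891 CPM, a ratio of 1.61 (1.59 to 1.62). Their log2 ratios of 1.66 and 0.68 compare with a 95th percentile of 0.83 over all genes tested, so CCN2 lay beyond it and CCN1 below it. Of the other CCN and muscle ankyrin repeat genes, 2 of 6 were tested, and they moved in opposite directions. CCN4 had 19.3 and 37.9 CPM, a ratio of 1.96 (1.88 to 2.04). CCN3 had 45.1 CPM untreated and 5.07 CPM with TGFB1, a ratio of 0.112 (0.105 to 0.120). CCN5 (4.84 and 1.90 CPM), ANKRD2 (4.9997 and 1.61 CPM) and ANKRD23 (2.90 and 1.99 CPM), all under 5 CPM and so not tested, were lower with TGFB1. CCN6, also not tested, had 5 and 8 UMIs. Among the CCN genes tested, CCN1, CCN2 and CCN4 were thus higher and CCN3 lower.

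**Figure D2:**
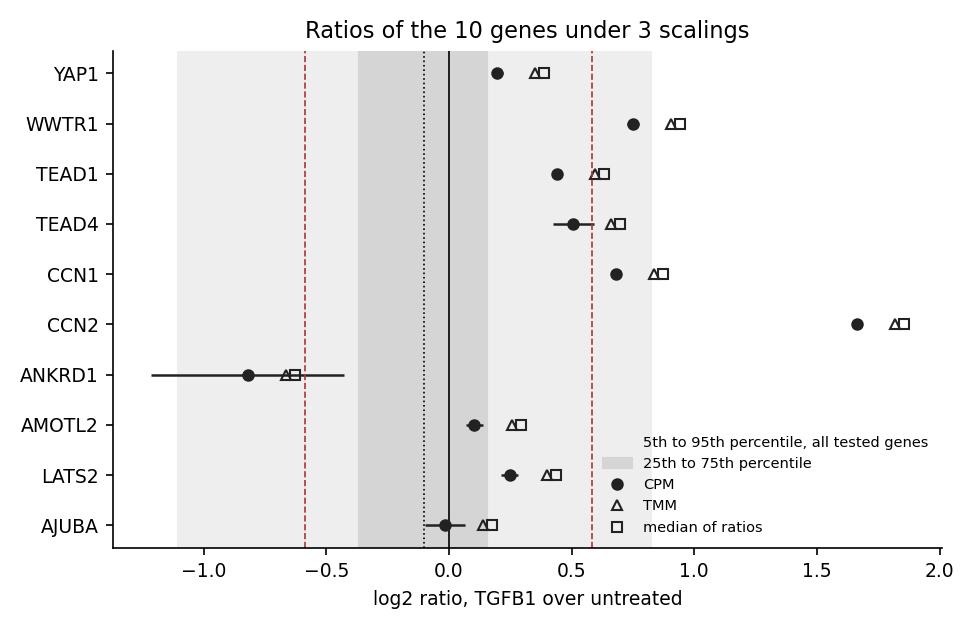
log2 ratio of TGFB1 over untreated for the 10 genes under CPM (filled circles, bars are 95% counting intervals), TMM (triangles) and median-of-ratios scaling (squares). Grey bands span the 5th to 95th and 25th to 75th percentiles of all tested genes under CPM and apply to the circles only. The dotted line is the CPM median of these genes, -0.10, and dashed lines mark 1.5-fold. CCN2, at 1.66, is the member beyond the outer band under CPM.

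CCN2 was higher at each percentile of cells examined. At 7500 UMIs per cell, the 10th percentile, median and 90th percentile were 0, 5 and 17 CCN2 UMIs in untreated cells and 10, 24 and 40 in TGFB1 cells. A UMI was found in 89.9% of untreated cells (89.2 to 90.5) and in 99.7% of those with TGFB1 (99.5 to 99.8). The highest 10% of cells held 35.4% of CCN2 UMIs without TGFB1 and 19.5% with it, and the ratio of variance to mean was 8.57 and 5.71, so the transcript was more evenly spread over cells in the TGFB1 library. CCN1 showed the same pattern on a smaller scale. Its 10th percentile, median and 90th percentile were 0, 3 and 9 UMIs untreated and 2, 6 and 12 with TGFB1, and its share of cells with a UMI was 85.8% and 97.3%. The highest 10% of cells held 29.2% and 21.4% of CCN1 UMIs.

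**Figure D3:**
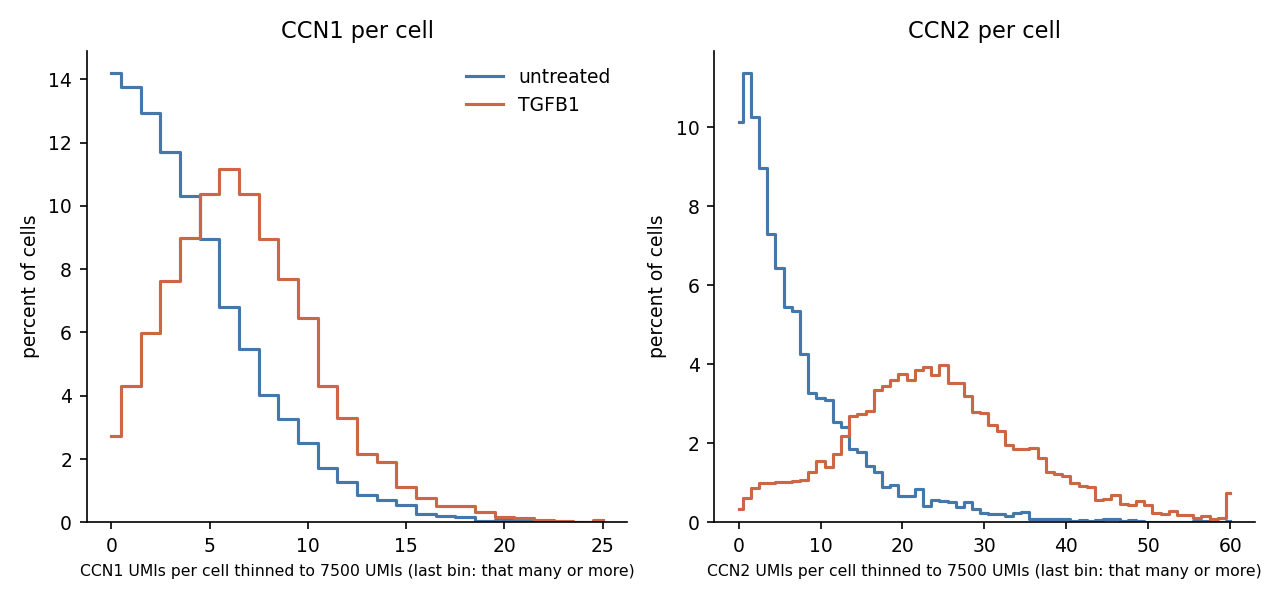
Distribution of CCN1 and CCN2 UMIs per cell after thinning to 7500 UMIs, as percent of cells in each library. CCN2 had a median of 5 UMIs per untreated and 24 per TGFB1 cell, CCN1 of 3 and 6.

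ANKRD1 (chr10:90912096-90921087), which encodes a nuclear and sarcomeric ankyrin repeat protein of muscle, was nearly absent and differed from the other targets in direction. The untreated library held 134 ANKRD1 UMIs (0.793 CPM) and the TGFB1 library 94 (0.450 CPM), a ratio of 0.567 (0.431 to 0.744). A UMI was found in 48 untreated and 79 TGFB1 cells. After thinning this was 0.301% (0.191 to 0.451) and 0.311% (0.208 to 0.446) of cells, against the 0.131% and 0.214% given above for PTPRC. In the untreated library 5 cells held 62 of the 134 UMIs, and the highest cell held 18. In the TGFB1 library the highest 5 cells held 16 and the highest cell 4.

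Most untreated ANKRD1 counts lay in cluster 10 of the authors, which holds 33 untreated and 113 TGFB1 cells. It had 74 ANKRD1 UMIs untreated (55.2% of that library's total, in 13 cells) and 19 with TGFB1 (in 15 cells), which is 99.97 CPM (78.5 to 125) and 14.5 CPM (8.70 to 22.6). Cluster 7 had 37 UMIs untreated (5.41 CPM) and 10 with TGFB1 (1.53 CPM). Outside clusters 7, 9 and 10 the direction was the opposite, with 21 UMIs untreated (0.132 CPM) and 63 with TGFB1 (0.318 CPM), a ratio of 2.42 (1.45 to 4.17). The library ratio therefore rests on few untreated cells. Of the 63 TGFB1 UMIs outside these clusters, 45 lay in cluster 0 (0.544 CPM). TGFB1 clusters 3 and 4 were at 0.101 and 0.192 CPM, against 0.118, 0.093 and 0.295 CPM in untreated clusters 1, 2 and 6. Cluster 10 also held counts of all 6 mural cell markers, which mark pericytes and smooth muscle. In its untreated and TGFB1 cells MYH11 was at 71.6 and 144 CPM, NOTCH3 at 55.4 and 31.2 CPM, RGS5 at 56.7 and 12.9 CPM, MCAM at 35.1 and 39.5 CPM, CSPG4 at 9.46 and 9.89 CPM and DES at 1.35 and 2.28 CPM. Among groups of at least 100 cells, TGFB1 cluster 10 was highest for all of these but CSPG4. That gene had 12.1 CPM in untreated cluster 6 and 11.9 CPM in TGFB1 cluster 8. DES rested on 1 and 3 UMIs, and 1 untreated cell held 21 of 42 RGS5 UMIs. The summed mural list was 14.05 CPM over all untreated and 17.3 CPM over all TGFB1 cells, and its part in the ANKRD1 counts was not tested.

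The members on the Hippo side of the pathway, which restrain YAP or are part of its feedback, differed little on the CPM scale. LATS2 (chr13:20973036-21061586), the kinase that phosphorylates YAP and TAZ and is itself a YAP target, had 70.9 CPM untreated and 84.1 CPM with TGFB1, a ratio of 1.19 (1.16 to 1.22). AMOTL2 (chr3:134355345-134375417), an angiomotin that binds YAP and is also a target, had 69.8 and 74.98 CPM, a ratio of 1.08 (1.05 to 1.10). AJUBA (chr14:22971177-22982551), a LIM protein that binds LATS kinases, had 13.5 and 13.4 CPM, a ratio of 0.989 (0.936 to 1.05), an interval that includes no difference, and its log2 ratio turned to 0.14 and 0.18 with the TMM and median-of-ratios scalings. In thinned cells LATS2 was detected in 37.4% and 43.1%, AMOTL2 in 37.0% and 40.0% and AJUBA in 9.08% and 9.02%. LATS2 and AMOTL2, which are classed as YAP targets like CCN1 and CCN2, thus differed by under 1.2-fold on the CPM scale, where CCN2 differed 3.17-fold. With the TMM and median-of-ratios scalings the log2 ratios were 0.40 and 0.44 for LATS2 and 0.26 and 0.30 for AMOTL2. Those of CCN2 were then 1.82 and 1.86.

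The lists around these members are read against all genes tested, of which 8.45% were higher and 14.2% lower. Of 17 Hippo kinases and scaffolds 16 were tested, 2 were higher, and the median log2 ratio was 0.04; none was lower. WWC2, a scaffold of the KIBRA family that promotes LATS activation, had 116 and 226 CPM, a ratio of 1.95 (1.92 to 1.98), and MOB1B, a LATS cofactor, had 29.4 and 44.4 CPM, a ratio of 1.51 (1.46 to 1.56). FRMD6, an upstream scaffold, had 341 and 468 CPM, and RASSF1, which binds MST kinases, 27.1 and 20.7 CPM. None of the 8 tested members of the STRIPAK phosphatase complex, which dephosphorylates MST kinases, passed 1.5-fold (median log2 ratio 0.16). Among them were SLMAP (85.2 and 108 CPM), PPP2R1A (77.2 and 62.1 CPM) and STRN3 (78.7 and 96.5 CPM). Of the other angiomotins and Ajuba-family proteins 3 of 4 were tested (median 0.03) and 1 passed, LIMD1, with 9.91 CPM untreated and 5.90 CPM with TGFB1, a ratio of 0.596 (0.553 to 0.642). AMOTL1 was at 29.0 and 35.8 CPM and WTIP at 26.6 and 27.1 CPM.

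Other published YAP and TAZ targets included genes past 1.5-fold in both directions. All 17 were tested, 4 were higher, 2 lower and 11 neither, where 8.45% of all genes were higher and 14.2% lower, and their median log2 ratio of 0.06 compares with 0.44 over the members and -0.10 over all genes. IGFBP3, a secreted binding protein of insulin-like growth factors, had 1132 and 4184 CPM, a ratio of 3.70 (3.68 to 3.71), and NUAK2, a kinase, 4.38 and 9.93 CPM, a ratio of 2.27 (2.08 to 2.47). CRIM1 (355 and 619 CPM) and ARHGEF17 (19.9 and 29.99 CPM) also passed and were named after their values were seen. FOXF2, a transcription factor, had 26.4 and 7.51 CPM, a ratio of 0.285 (0.269 to 0.302), and NT5E 282 and 154 CPM, a ratio of 0.546 (0.539 to 0.554). FOXF2, with a log2 ratio of -1.81, thus differed as far downward as CCN2, with 1.66, did upward.

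Lists of other regulators known to act on CCN1 and CCN2 are described next, where 8.45% of all genes were higher and 14.2% lower. SMAD target genes were chosen with earlier results of these libraries known, so their count is no support for a SMAD response. All 7 were higher, with a median log2 ratio of 1.4996, among them LDLRAD4 (2.88 and 54.2 CPM), PMEPA1 (17.0 and 142 CPM) and LTBP2 (118 and 334 CPM). Of the SRF and MRTF list, which couples actin to transcription, 9 of 15 tested genes were higher (median 0.79) and none was lower. Contractile genes led it, with ACTA2 at 202 and 1270 CPM, TPM1 at 1457 and 7409 CPM, CNN1 at 105 and 428 CPM and CALD1 at 1795 and 4804 CPM. Of the AP-1 factors, which often bind beside TEAD, 7 of 9 were tested, none was higher and 1 was lower, with a median of -0.33; among all genes 14.2% were lower. The lower gene was FOSL1, with 24.96 and 12.7 CPM, and the next largest differences were FOS (33.4 and 22.4 CPM), FOSL2 (24.0 and 35.3 CPM) and JUN (51.1 and 36.2 CPM).

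The authors divided the cells into 11 clusters, and 13 pairs of cluster and library held at least 100 cells, 5 untreated and 8 with TGFB1. CCN2 was the only member whose levels did not overlap between the libraries over these groups. It ran from 636 CPM (cluster 9) over a median of 898 CPM to 1522 CPM (cluster 7) in untreated groups, and from 2152 CPM (cluster 9) over a median of 3092 CPM to 3874 CPM (cluster 4) in TGFB1 groups. Over all genes, 2.31% had all TGFB1 groups above all untreated groups and 3.87% had them below. The clusters were made from all genes of these cells, so this is a description. CCN1 nearly separated, with 412 to 794 CPM in untreated groups and 686 to 997 CPM in TGFB1 groups. WWTR1 overlapped by a narrow margin, with 73.4 to 138 CPM (138 in cluster 1) untreated and 137 CPM (cluster 4) to 215 CPM with TGFB1.

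The remaining members overlapped widely. YAP1 ranged from 98.1 to 239 CPM untreated and from 109 to 220 CPM with TGFB1, with cluster 9 highest in both libraries. TEAD1 ranged from 247 to 414 and from 298 to 588 CPM, TEAD4 from 8.78 to 13.4 and from 10.8 to 19.1 CPM, and LATS2 from 45.04 to 89.3 and from 48.8 to 96.4 CPM. AMOTL2 varied least, from 62.5 to 74.3 and from 64.2 to 85.4 CPM. AJUBA ranged from 8.51 to 18.4 CPM and from 11.4 to 15.6 CPM. Clusters 2 and 4 had the lowest YAP1, WWTR1, TEAD1, TEAD4 and LATS2 of the untreated and the TGFB1 library, respectively, and cluster 4 had the highest CCN2 of all groups.

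**Figure D4:**
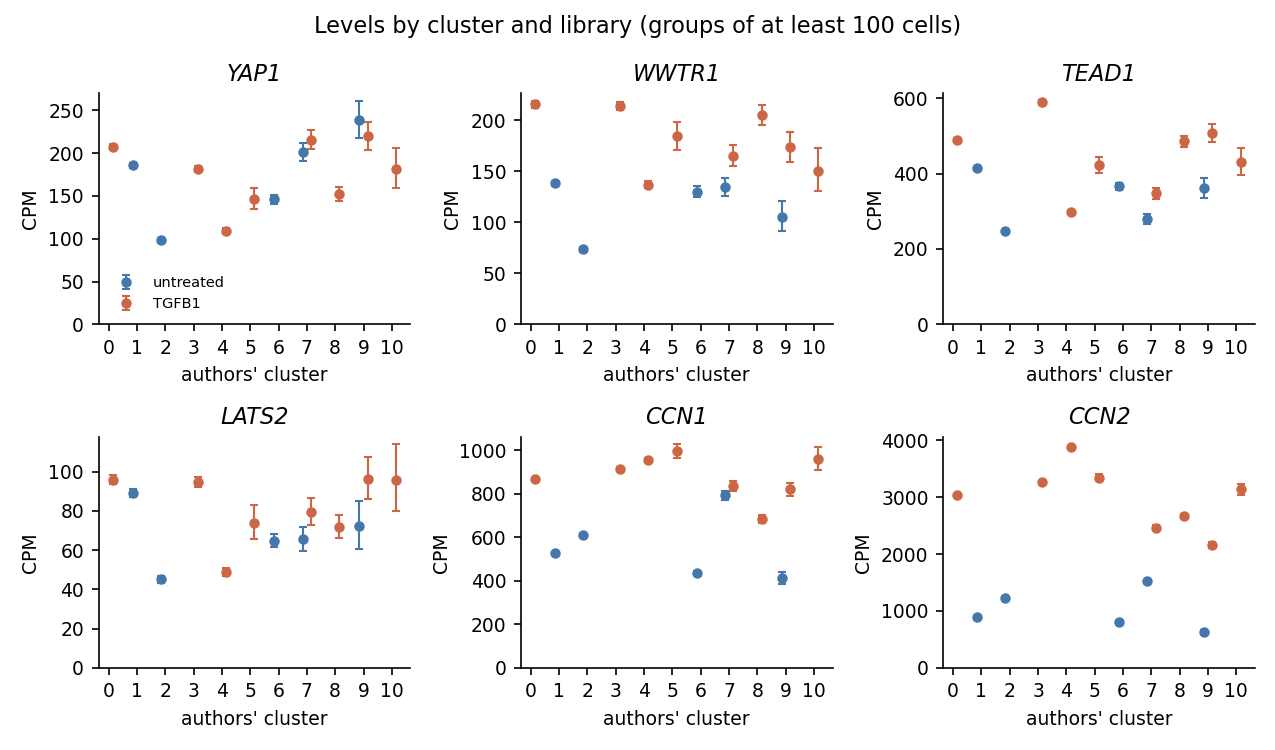
CPM of 6 members in each authors' cluster with at least 100 cells of a library; points are sums over cells, bars exact Poisson 95% intervals, blue untreated and orange TGFB1. CCN2 groups do not overlap between libraries, and YAP1, WWTR1, TEAD1 and LATS2 share a low point in cluster 2 (untreated) and cluster 4 (TGFB1).

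Clusters 7 and 9 held at least 100 cells of each library, which allowed the libraries to be compared inside a cluster. In cluster 9 the ratios were 3.38 (3.19 to 3.597) for CCN2, 1.99 (1.84 to 2.15) for CCN1, 1.65 (1.40 to 1.94) for WWTR1, 1.40 (1.29 to 1.54) for TEAD1 and 0.920 (0.818 to 1.04) for YAP1. The 3 members past 1.5-fold were those of the whole library, where 9.69% of genes were higher and 17.8% lower in this cluster. In cluster 7 CCN2 was 1522 and 2467 CPM, a ratio of 1.62 (1.58 to 1.66), and CCN1 794 and 837 CPM, a ratio of 1.06 (1.02 to 1.10). WWTR1 had a ratio of 1.23 (1.12 to 1.34) there. CCN2 was thus the only member higher by 1.5-fold in cluster 7, where 5.03% of genes were higher and 4.95% lower. ANKRD1, at 5.41 and 1.53 CPM, reached 5 CPM there only through the untreated cells, of whose 37 UMIs 1 cell held 14, so no call is made for it. Cluster 7, where the ratios of both CCN genes were smaller than in cluster 9, had the highest CCN1 and CCN2 of the 5 untreated groups.

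A few cells lay in clusters made up mostly of the other library. The 123 TGFB1 cells in clusters 1, 2 and 6 had 1730 CPM of CCN2 (1676 to 1786), between the 995 CPM of untreated cells in these clusters and the 3279 CPM of TGFB1 cells in clusters 0, 3, 4, 5 and 8. Their CCN1 (634 CPM, against 546 and 896 CPM) and WWTR1 (136 CPM, against 115 and 197 CPM) lay between as well. The 63 untreated cells in clusters 0, 3, 4, 5 and 8 had 1333 CPM of CCN2 and 791 CPM of CCN1, with a median of 3940 UMIs per cell. These cells were placed by their own expression, and the values are a description.

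Within each library, the coactivators and the CCN targets differed in opposite directions between a pair of large clusters, a contrast chosen after the values were seen. In untreated cluster 2 against cluster 1, YAP1 was at 98.1 and 186 CPM (log2 ratio -0.92), WWTR1 at 73.4 and 138 CPM (-0.91), TEAD1 at 247 and 414 CPM (-0.75) and LATS2 at 45.04 and 89.3 CPM (-0.99). CCN2 was at 1220 and 898 CPM (0.44) and CCN1 at 613 and 530 CPM (0.21). With TGFB1, cluster 4 against cluster 0 gave -0.92 for YAP1, -0.65 for WWTR1, -0.71 for TEAD1, -0.97 for LATS2, 0.35 for CCN2 and 0.14 for CCN1. In each library 4 of 9 tested members were at least 1.5-fold lower and none higher, where 32.8% (untreated) and 32.6% (TGFB1) of all genes were lower and 0.705% and 1.53% higher. Cluster 3, the second largest with TGFB1, did not show this split against cluster 0 for WWTR1 or TEAD1: WWTR1 was at 214 and 215 CPM, TEAD1 at 588 and 489 CPM, YAP1 at 181 and 207 CPM, and CCN2 at 3271 and 3042 CPM. In the contrasts of cluster 2 with 1 and of 4 with 0, TEAD4 (-0.41 and -0.50), AMOTL2 (-0.19 and -0.22) and AJUBA (-0.05 and -0.08) lay between.

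The members with short genes lay above 0 or near it in this contrast and the 4 with the longest genes lowest, although among those 4 the order did not follow span, and LATS2, the shortest of them, was lowest in both libraries. CCN1 and CCN2 span 3.19 and 3.20 kb, AJUBA 11.4, AMOTL2 20.1, TEAD4 81.3, LATS2 88.6, YAP1 123, WWTR1 208 and TEAD1 270 kb. Over all genes, the median log2 ratio of cluster 2 over cluster 1 was 0.31 below 10 kb, 0.03 from 10 to 30 kb, -0.41 from 30 to 100 kb, -0.88 from 100 to 300 kb and -1.35 from 300 kb. Cluster 4 over cluster 0 gave 0.33, 0.02, -0.40, -0.87 and -1.39. Against the genes of their own span class, YAP1, WWTR1, TEAD1, TEAD4, CCN1, AMOTL2 and AJUBA lay within the middle 50% in both libraries. LATS2 lay below it in both, by 0.57 under the class median, and CCN2 lay above it in the untreated library only. A span was available for 96.3% and 96.4% of tested genes.

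Other values moved with this contrast. MALAT1, a nuclear RNA, was at 24102 CPM in cluster 1 and 9917 CPM in cluster 2, and at 21714 CPM in cluster 0 and 7845 CPM in cluster 4. Ribosomal protein genes took 14.4% and 18.2% of UMIs in clusters 1 and 2, and 13.03% and 16.9% in clusters 0 and 4. Median UMIs per cell were 21470 and 16327 in clusters 1 and 2, and 12007 and 15941 in clusters 0 and 4, so depth differed in opposite directions in the 2 libraries. The part of any of these in the levels of YAP1, WWTR1, TEAD1 and LATS2 was not tested. The comparison of TGFB1 with untreated cells did not carry the same gradient, with medians of -0.20, -0.14, -0.06, -0.04 and -0.07 over the same 5 classes of span. WWTR1, TEAD1, TEAD4, CCN1, CCN2, AMOTL2 and LATS2 lay above the middle 50% of their class in that comparison.

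**Figure D5:**
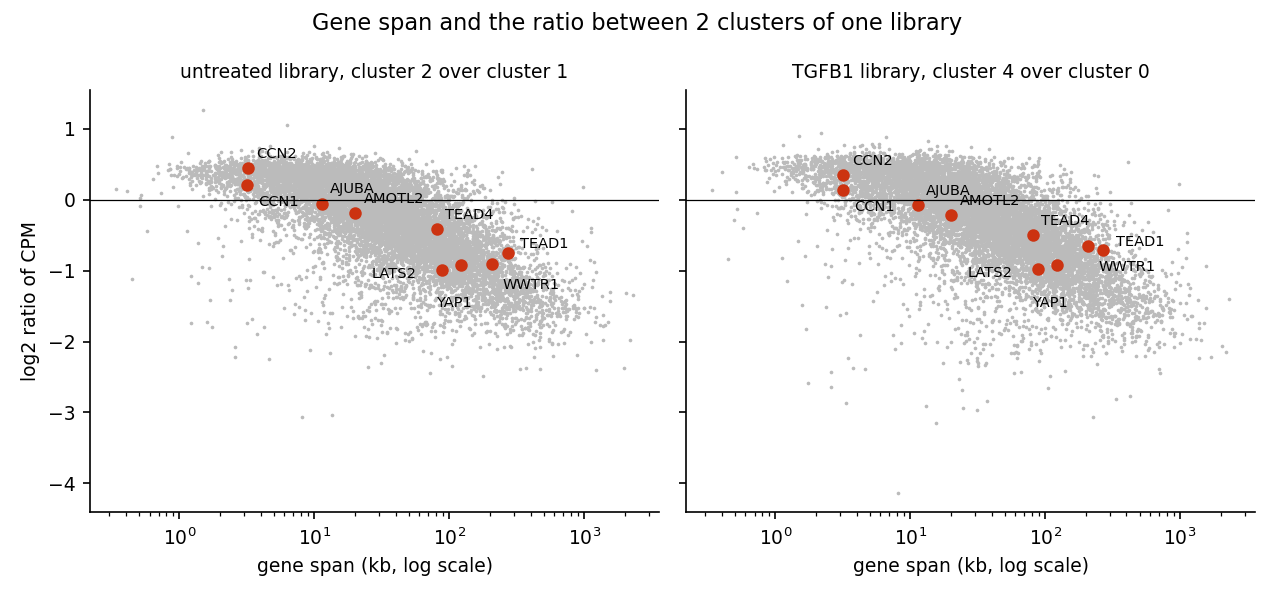
log2 ratio of CPM between clusters of 1 library against gene span in kb on a log axis, for all tested genes (grey) and the tested members (red). Long genes such as YAP1, WWTR1 and TEAD1 lie below 0 and the short genes CCN1 and CCN2 above it, in both panels.

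Dividing cells differed in the same direction for both CCN targets in both libraries. In thinned untreated cells with an MKI67 or TOP2A UMI (902 cells) against those without (6744), the ratio was 0.773 (0.744 to 0.803) for CCN1 and 0.805 (0.782 to 0.828) for CCN2. In the TGFB1 library (477 and 8853 cells) it was 0.877 (0.845 to 0.911) and 0.864 (0.847 to 0.882). WWTR1 had ratios of 1.15 (1.07 to 1.23) and 1.12 (1.04 to 1.21), log2 ratios of 0.20 and 0.17 where the median of all genes was 0.10 and 0.13. AJUBA was the only tested member past 1.5-fold, with 7.39 CPM in dividing and 13.4 CPM in other untreated cells, a ratio of 0.553 (0.406 to 0.738), where 12.1% of genes were higher and 5.3% lower. With TGFB1 the AJUBA ratio was 1.15 (0.855 to 1.53), no tested member passed 1.5-fold where 10.4% of genes were higher and 2.47% lower, and 50 and 52 UMIs in the dividing cells lie behind these values. Leaving out cells with a UMI of either marker left 3 members at least 1.5-fold higher between the libraries.

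IL11, a cytokine that had a UMI in 51.2% of thinned TGFB1 cells, separated the members little. Among TGFB1 cells with (4780) and without (4550) an IL11 UMI, CCN2 was at 3389 and 3115 CPM, a ratio of 1.09 (1.08 to 1.10). CCN1 had a ratio of 1.03 (1.02 to 1.05) and YAP1 of 0.945 (0.912 to 0.980). No tested member passed 1.5-fold, and 0.106% of all genes were higher and 0.404% lower by that much.

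Across single cells, CCN1 and CCN2 were the pair that varied together most. Their Spearman correlation over thinned cells was 0.40 untreated (7646 cells) and 0.31 with TGFB1 (9330 cells). Inside clusters it ran from 0.15 (cluster 9, TGFB1) to 0.57 (cluster 8, TGFB1). The other 44 pairs were weak. The next were CCN1 with AMOTL2 (0.16 untreated and 0.09 with TGFB1) and YAP1 with TEAD1 (0.16 and 0.14). Coactivators and CCN2 had values near or below 0, with -0.05 and -0.12 for YAP1 and -0.08 and -0.10 for WWTR1. Cells of 1 library share its preparation, and most members have a median of 0 to 3 UMIs per thinned cell, which limits any correlation.

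The genes most like the targets over the 13 groups of cluster and library were found by Pearson correlation of log2(CPM + 1), among genes that reached 20 CPM in a library. For CCN2 these were PDLIM7 (0.993), ALDH1B1 (0.981), a gene listed as ENSG00000248187 (0.978), FAM177A1 (0.971) and CNN1 (0.971). For CCN1 they were CHAC1 (0.969), CAMTA2 (0.962), ALDH1B1 (0.951), CCN2 (0.945) and LIMS2 (0.945). The 5 untreated and 8 TGFB1 groups differ in most of these genes, so the values reflect the difference between the libraries as well as that between clusters. PDLIM7, an actin-associated LIM protein, had 150 and 298 CPM in the libraries. For ANKRD1 they were LOXL2 (0.924), KCTD20 (0.892), NECTIN2 (0.871), PRSS23 (0.867) and TMEM127 (0.840), and LOXL2 was at 114 and 128 CPM. ANKRD1 itself had a median of 0.295 CPM over untreated and 0.404 CPM over TGFB1 groups. Its values for likeness rest largely on TGFB1 cluster 10 (14.5 CPM, 19 UMIs) and untreated cluster 7 (5.41 CPM, 37 UMIs).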

How the data were processed

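Single-cell transcriptomes of 1 untreated and 1 TGFB1 library were analysed. Raw UMI counts of each gene in each cell were deposited as 1 matrix. A cell table deposited with it gives the library, the cluster and the percent of mitochondrial UMIs of every cell. Cell Ranger 9.0.1, Seurat and GRCh38 are named in the submitters' processing notes; their roles and the annotation are not given in the sources used here. Deposited cells had at least 502 genes and at most 5.00% mitochondrial UMIs. Doublets were not called, so any that were deposited remain.

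UMIs were summed over a library, cluster or cell set and divided by its total (CPM). Ratios have exact conditional binomial, sums exact Poisson and shares exact binomial (Clopper-Pearson) 95% intervals. With 1 library per group no test was made. A count of 0 would allow 3 UMIs, or 0.0178 and 0.0144 CPM. Cells were thinned to 7500 UMIs, leaving out 455 untreated and 3225 TGFB1 cells. Genes that reached 5 CPM in a library counted as tested, and as higher or lower from 1.5-fold. Cluster and library pairs needed 100 cells. TMM factors came from edgeR 4.0.16, which made no test here. Gene positions, spans and promoter windows are from RefSeq (GRCh38.p14). Genes sharing reads with overlapping antisense genes could not be assessed.

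The members, lists and contrasts were chosen with earlier results of these data known. Named genes are all 10 members, up to 4 tested genes per list, taken by absolute log2 ratio, and the 5 most similar to CCN1, CCN2 and ANKRD1. The untested CCN and muscle ankyrin repeat genes were named after their values were seen. A few list genes and markers are not reported here. Alternatives were other scalings, equal weight per cell, thinning to 5000 UMIs or none, a minimum of 1 or 20 CPM, a fold of 2, at least 1000 genes per cell, and leaving out dividing cells or clusters. Leaving out barcodes found in both libraries, or clusters 2 and 4, was added after seeing the data. The steps were tested on simulated data. Software was R 4.3.3, matplotlib 3.10.9, pandas 2.3.3, scipy 1.17.1, numpy 2.4.6 and Python 3.11.15.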

Additional observations from a re-analysis of the deposited data

Results flagged for a closer look

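ANKRD1 differed between the libraries in opposite directions in different cells. Its log2 ratio of TGFB1 over untreated was -2.79 in cluster 10 (74 and 19 UMIs) and 1.27 outside clusters 7, 9 and 10 (21 and 63 UMIs). Cluster 0 held 45 of these 63 UMIs, at 0.544 CPM, and TGFB1 clusters 3 and 4 were at 0.101 and 0.192 CPM. The difference between these ratios was not tested, since each rests on 1 library per condition.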

How the results depend on the processing

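With 1 library per condition, the spread between cultures is unknown, and depth limits chiefly ANKRD1, with 134 and 94 UMIs. No paired analysis was possible because the labels give no replicate numbers and each group has 1 library. Directions of CCN2, WWTR1, CCN1, TEAD1, TEAD4, YAP1, LATS2 and AMOTL2 were the same at the library level in every alternative run. The count of members at least 1.5-fold higher, 3 as reported, was 5 with TMM, 5 with median of ratios and 1 at a fold of 2. Of all genes tested, 8.45% were higher as reported, 11.7% with TMM and 12.8% with median of ratios. Over all 9 lists, which named 91 genes before the limit of 5 CPM, 24 were higher and 6 lower, where 8.45% and 14.2% of all genes were. Of the 24, 7 came from the SMAD list and 9 from the SRF and MRTF list. The lists were chosen with earlier results of these libraries known, so the pooled count is no support for a response of any pathway. At a fold of 2 the list genes were 13 and 2, and no share of all genes is given at that fold. The log2 ratio of ANKRD1, -0.82 as reported, was 0.062 with equal weight per cell and 1.27 without clusters 7, 9 and 10. That of AJUBA, -0.02 as reported, was 0.0068 without clusters 7, 9 and 10, 0.14 with TMM, 0.18 with median of ratios, 0.026 with equal weight per cell and 0.0034 after thinning. The share of cells with a UMI was higher with TGFB1 for 9 members as reported and for 5 without thinning, where the difference was -5.01 points for YAP1, -0.735 for TEAD1, -6.68 for AMOTL2 and -3.80 for LATS2; for AJUBA it was 0.138 points at 5000 UMIs. Pairs with a correlation of at least 0.1 numbered 10 untreated and 5 with TGFB1, and 3 and 2 at 5000 UMIs, where fewer UMIs are counted per cell. The causes of the other changes were not tested.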

Other observations

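The TGFB1 library held a minority of cells with low CCN2. Under 10 CCN2 UMIs were found in 865 of 9330 thinned TGFB1 cells (9.27%, exact binomial interval 8.69 to 9.88) and in 72.8% of untreated cells. The limit of 10 UMIs was chosen after the distribution was seen. By cluster the share was 4.92% in cluster 3, 5.58% in cluster 4, 9.59% in cluster 0, 23.5% in cluster 7, 29.2% in cluster 8 and 34.4% in cluster 9. Since the cells were picked by CCN2, what follows describes the other genes in them and carries no test.

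These 865 cells had less of the other YAP targets than the remaining TGFB1 cells but not less of several SMAD target genes. CCN1 was at 498 CPM in them and 945 CPM in the rest, where the untreated library had 555 CPM, and AMOTL2 at 41.0 and 75.04 CPM (69.8 CPM untreated). ACTA2, the smooth muscle actin, was at 650 and 1375 CPM, above the untreated 202 CPM in both sets of cells. PMEPA1 (153 and 142 CPM), SMAD7 (40.1 and 33.4 CPM), SKIL (239 and 212 CPM) and LDLRAD4 (71.4 and 51.2 CPM) were as high or higher in the cells with low CCN2, as were WWTR1 (237 and 186 CPM) and YAP1 (191 and 170 CPM). TEAD1 was at 376 and 456 CPM. The median cell had 16983 UMIs with low CCN2 and 19023 otherwise, MALAT1 was at 19924 and 16171 CPM, and 10.8% and 4.54% of the cells had a UMI of MKI67 or TOP2A. The part of depth, MALAT1 or cell division in these values was not tested.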
